A study of Mus musculus with 20 samples.

Results

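Knockdown of Tcf7l2 was compared with a scrambled hairpin in 3T3-L1 cells at day 0, before adipocyte differentiation was induced. 3T3-L1 is a line of mouse fibroblasts committed to the fat lineage, which fill with lipid once they are given a hormone mixture. The comparison covers the 15490 genes, of 33581 in the day 0 table, whose mean normalised count over the 4 day 0 libraries was at least 10. A read was found for 22993 genes. Just outside that limit were Taf7l (9.99) and AL844882.1 (9.99), and just inside it were Sdr42e1 (10.01) and E130012A19Rik (10.02).

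Both groups were 3T3-L1 cells infected with a lentiviral SMARTvector hairpin at very low passage and kept as a mixed population under puromycin selection, and neither had received the differentiation medium. The groups differ in the hairpin alone, per the labels, which were Scrambled or Tcf7l2, with 2 RNA-seq libraries each. Effects of the hairpin or of the selected population and loss of Tcf7l2 cannot be told apart in these libraries, since the labels name 1 knockdown hairpin group. Nothing in the labels tells if the paired libraries of a group were grown as separate cultures. The p-values therefore cover the spread between these samples only, and that spread may be technical.

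Tcf7l2 belongs to the Tcf/Lef family of DNA-binding proteins, which hold Wnt target genes silent with corepressors and activate them when beta-catenin, stabilised by Wnt signals, binds to them. Wnt signalling is known to keep preadipocytes from differentiating. In cell culture, 3T3-L1 cells are grown to confluence and stop dividing before the hormone mixture is given.

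The day 0 libraries held 20153362 to 32126048 reads. Between 19838 and 20990 genes had a read in a library, and the most abundant gene took 1.68% of the reads or less. The fibroblast list (Col1a1, Col1a2, Vim and others) summed to 33995 to 59402 RPM, the reads of a gene scaled to library size, and Dlk1, the preadipocyte marker known as Pref-1, was at 4651 and 4587 RPM in scrambled and 2875 and 2738 RPM in knockdown cells. Lists of other cell types were low in all 4 libraries: macrophage genes summed to 29.8 to 36.3 RPM with Emr1, C1qa and C1qb at 0 reads, endothelial genes to 13.4 to 17.9 RPM, muscle genes to 31.1 to 34.2 RPM with Myod1 and Myog at 0 reads, and epithelial genes to 0.591 to 0.719 RPM. Libraries carrying the same number deviated together from their group means, with a correlation of 0.794 over genes, and a fit that takes the library number into account is given beside each result it changes.

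Changes are differences of the deposited log2 values, knockdown minus scrambled, with the standard error (SE) and Benjamini-Hochberg adjusted p of limma, and a gene is called at an adjusted p under 0.05. Each gene has 1 spread, estimated over the 10 groups of the time course (days 0, 2, 4, 6 and 8). The deposited scale compresses low genes, since 0 reads are given a value of 5.87, so that a change of a low gene understates its ratio. Reads per library were recovered by inverting the deposited transformation, and limma was also run on them. Levels are in RPM from these reads, with a value per library, and are not scaled to gene length. The gene lists were written with earlier results of these data known, so their shares beside those of all genes are descriptive.

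Of the 15490 genes, 40 were called (0.258%): 25 were higher in knockdown cells (0.161%) and 15 were lower (0.0968%). The genes called higher included the guanylate-binding proteins Gbp4 and Gbp9, the receptor Robo1, the semaphorin Sema6a and the kinase Prkd1. Those called lower included Tcf7l2 itself, the R-spondin receptor Lgr4, the FGF receptor Fgfr2 and the membrane skeleton protein Add3. For each of the 40 genes, both knockdown libraries lay on 1 side of both scrambled libraries, as was the case for 16.9% of all genes in the upward and 16.4% in the downward direction. With the library number in the fit, 138 genes were called (0.891%), 77 higher (0.497%) and 61 lower (0.394%). All of the 40 but Gap43 and Foxp2 were among these 138 (adjusted p = 0.0648 and 0.0646 by limma with the library number). On recovered reads 35 of the 40 were called, and Gap43, Foxp2, BC005764, Cfhr2 and Gm4788 were not.

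**Figure D1:**
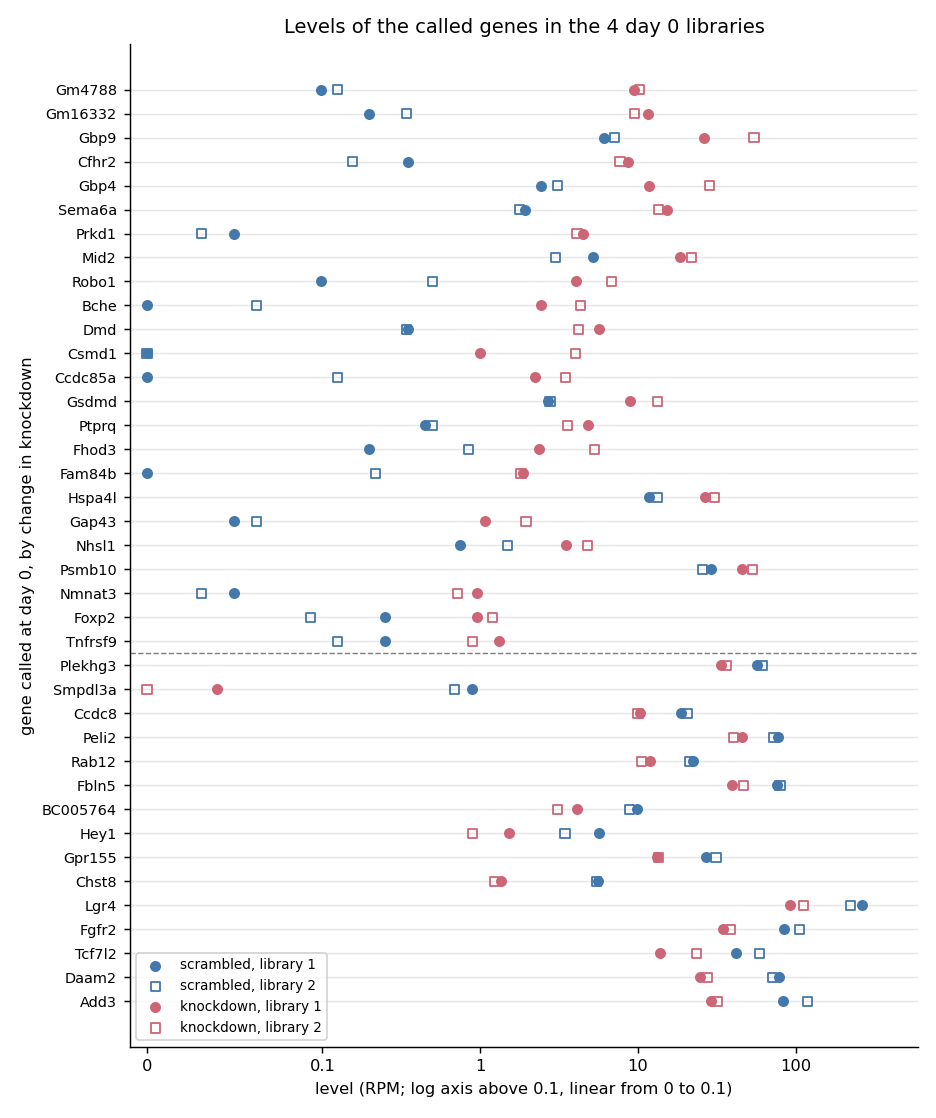
Level in RPM of 39 of the 40 called genes in the 4 day 0 libraries, with scrambled in blue and knockdown in red, library 1 as filled circles and library 2 as open squares. The axis is logarithmic above 0.1 RPM and linear below, and genes above the dashed line were higher in knockdown cells. The groups do not overlap for any gene drawn, and in Csmd1 both scrambled libraries are at 0.

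These calls rest on few libraries. Without scrambled library 1, 8 genes were called over all genes, without scrambled library 2, 3 genes, without knockdown library 1, 56 genes, and without knockdown library 2, 4 genes. Prkd1 and Robo1 were the 2 of the 40 genes called in all 4 of these fits. Fitted on the 4 day 0 libraries alone, with 2 residual degrees of freedom, 2 genes were called, among them Gm4788 (limma adjusted p = 0.0477). In the authors' deposited table, 266 genes had an adjusted p under 0.05, 159 higher and 107 lower, and these included 36 of the 40. The other 4 were Smpdl3a, Nmnat3, Tnfrsf9 and Foxp2, with adjusted p-values of 0.136, 0.140, 0.269 and 0.259 in the authors' deposited table. Genes not called here had low DESeq2 adjusted p-values there, among them Serpine2 (2.59e-10), Fgfr3 (1.30e-07), Plin4 (1.63e-07), Sfrp2 (1.29e-06) and Ror1 (0.00039). The spread used here is shared over the 10 groups of the time course, so close libraries at day 0 do not alone give a call.

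Tcf7l2, the target of the hairpin, was at 41.9 and 59.0 RPM in the scrambled libraries and at 13.9 and 23.4 RPM in the knockdown libraries. Its mean fell to 36.9% of the scrambled level, from 50.4 ± 12.04 to 18.6 ± 6.74 RPM (SD, n = 2). The groups do not overlap, although library 2 was higher than library 1 in both. The change was -1.30 (SE 0.192, limma adjusted p = 0.0113). The call ended without scrambled library 2 (adjusted p = 0.154), without knockdown library 1 (adjusted p = 0.0571) and on the 4 libraries alone (adjusted p = 0.365).

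The other Tcf/Lef factors that were tested had negative changes as well, but were not called. Tcf7l1, which acts mainly as a repressor, was at 244 and 246 RPM in scrambled and 168 and 156 RPM in knockdown cells (change -0.61, SE 0.124, limma adjusted p = 0.0783). Lef1 was at 10.2 and 9.12 against 6.85 and 6.404 RPM (change -0.39). The list summed to 296 and 315 RPM in scrambled and 189 and 186 RPM in knockdown libraries. The remaining member, Tcf7, was under the limit on the mean count.

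Among classical Wnt target and feedback genes, 0 of 23 tested members were called by limma on the deposited values, with the library number or on recovered reads, and 3 had an unadjusted p under 0.05. There were 9 positive and 14 negative changes with a median of -0.12, beside -0.0017 over all genes. Axin2, a feedback inhibitor and the usual readout of beta-catenin activity, was hardly expressed, at 0.0496 and 0.0311 RPM in scrambled and 0.120 and 0.240 RPM in knockdown cells, and was not tested. Those with the smallest p were Jag1, a Notch ligand (change -0.43), Irs1, an insulin receptor substrate (-0.61), and Apcdd1, a membrane inhibitor of Wnt signals (0.78), with limma adjusted p-values of 0.678, 0.703 and 0.705. The 25 genes of the beta-catenin complex and its cofactors had a median change of -0.08 and 0 calls by limma in these 3 fits, with 1 unadjusted p under 0.05. Tle1 and Tle3, corepressors that bind Tcf/Lef factors, had changes of 0.52 and -0.44 and were not called (limma adjusted p = 0.627 and 0.980).

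Receptors of the pathway held 1 call among 18 tested genes. Lgr4, a receptor for R-spondins, which raise the amount of Wnt receptors at the cell surface, was at 263 and 223 RPM in scrambled and 92.7 and 112 RPM in knockdown cells. Its level in knockdown cells was 42.1% of that in scrambled cells, with groups that do not overlap (change -1.24, SE 0.188, limma adjusted p = 0.0125). Lrp6, the Wnt co-receptor, was at 254 and 300 RPM against 186 and 202 RPM and was called lower with the library number in the fit (change -0.53, limma adjusted p = 0.0444 with and 0.633 without it). Ror1, a receptor for Wnt5a, was at 20.6 and 26.1 RPM in scrambled and 9.92 and 9.49 RPM in knockdown cells, and Fzd1 at 303 and 406 against 256 and 239 RPM. Both were apart between the groups but not called (limma adjusted p = 0.328 and 0.481). Daam2, a formin that binds Dishevelled, was at 78.1 and 71.5 RPM in scrambled and 24.6 and 27.5 RPM in knockdown cells (change -1.41, SE 0.260, limma adjusted p = 0.0466). Its paralog Daam1 was at 32.7 and 39.97 against 32.2 and 42.7 RPM, overlapping between the groups. Of 11 tested ligands and secreted antagonists of the pathway, 0 were called by limma in these 3 fits and 3 had an unadjusted p under 0.05. The antagonist Sfrp2 was at 79.3 and 70.0 RPM in scrambled and 31.9 and 26.2 RPM in knockdown cells (change -1.27, adjusted p = 0.599).

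FGF signalling is a mitogenic route in preadipocytes, and its receptors are tyrosine kinases. Fgfr2 was at 84.1 and 105 RPM in scrambled and 34.5 and 38.4 RPM in knockdown cells (change -1.30, SE 0.195, limma adjusted p = 0.0125). Fgfr3 was at 10.2 and 13.7 against 2.87 and 2.12 RPM, and the decoy receptor Fgfrl1 at 117 and 120 against 76.9 and 66.8 RPM. Both lay apart between the groups but were not called (changes -1.40 and -0.72, limma adjusted p = 0.102 and 0.142). Over the 15 tested receptors and ligands of the list the median change was -0.17, with 6 positive and 9 negative, and Fgfr2 was the 1 call.

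Add3 encodes gamma-adducin, which caps actin filaments in the membrane skeleton. It was at 82.9 and 119 RPM in scrambled and 29.1 and 32.1 RPM in knockdown cells, and fell to 30.3% of the scrambled mean (change -1.60, SE 0.205, limma adjusted p = 0.0074). Add1, the alpha subunit, was at 338 and 359 against 331 and 321 RPM. The 7 other tested members of the membrane skeleton list were not called, and the list's median was -0.15.

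The remaining genes called lower were of varied roles. Hey1, a transcriptional repressor induced by Notch, was at 5.66 and 3.46 RPM in scrambled and 1.51 and 0.890 RPM in knockdown cells (change -0.88, limma adjusted p = 0.0499). Notch1 itself was at 92.5 and 95.8 against 63.9 and 64.0 RPM and was called only with the library number (change -0.55, limma adjusted p = 0.0392). Chst8, a sulfotransferase of glycans, was at 5.61 and 5.48 against 1.35 and 1.23 RPM. Peli2, a ubiquitin ligase of innate immune signalling, was at 77.4 and 72.5 against 45.4 and 40.3 RPM. Gpr155 was at 27.1 and 31.2 against 13.1 and 13.5 RPM, and the small GTPase Rab12 at 22.5 and 21.4 against 11.99 and 10.5 RPM. Smpdl3a, a phosphodiesterase related to sphingomyelinases, was at 18 and 22 reads in scrambled and 1 and 0 reads in knockdown libraries. Ccdc8 and Plekhg3, and BC005764, which lacks a gene name, complete the group, with changes of -0.77, -0.72 and -0.88.

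Fbln5 was the called member of the elastic fibre list. Elastic fibres are built on fibrillin microfibrils, onto which fibulins bring elastin and its crosslinking enzymes. Fbln5, the fibulin that binds elastin, was at 76.1 and 79.6 RPM in scrambled and 39.7 and 46.4 RPM in knockdown cells (change -0.82, SE 0.130, limma adjusted p = 0.0156). All 20 tested members of the list had a negative change, with a median of -0.45, and 19 of 20 did so after quantile normalization. In 10 of the 20, both knockdown libraries were below both scrambled libraries, against 16.4% of all genes. Emilin2, a microfibril-associated glycoprotein, was at 4.22 and 4.82 RPM against 1.27 and 1.61 RPM and was called lower with the library number (change -0.79, limma adjusted p = 0.0370). Mfap2, a microfibril protein, was at 1.04 and 4.86 RPM in scrambled and 0.438 and 0.959 RPM in knockdown cells, and Eln, elastin, at 1.09 and 3.89 against 1.04 and 1.20 RPM. Library 2 was above library 1 over this list, with a median difference of 0.41 on the log2 scale, and the part of library number in the list's result was not tested.

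Cfhr2, a gene on chromosome 1, was at 0.347 and 0.156 RPM in scrambled and 8.61 and 7.71 RPM in knockdown cells and rose in the knockdown (change 1.97, limma adjusted p = 0.0364). Gm4788, a predicted gene, was at 0.0992 and 0.125 against 9.40 and 10.2 RPM, and the predicted pseudogene Gm16332 at 0.198 and 0.342 against 11.6 and 9.49 RPM, with changes of 2.31 and 2.21. The rule for named genes counts predicted genes but leaves them unnamed, so both were singled out after their values were seen. In each of these genes the knockdown libraries were close to each other and far above both scrambled libraries. These genes have near-identical copies in part, and the way the authors' counting treated reads that fit several copies is not given in the sources used here, so their single levels are uncertain. On recovered reads Gm16332 was called, and Cfhr2 and Gm4788 were not.

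Kcnt2, a sodium-activated potassium channel gene, was at 1.14 and 0.654 RPM in scrambled and 4.98 and 6.78 RPM in knockdown cells and was called higher with the library number in the fit (change 1.23, limma adjusted p = 0.0071 with and 0.0804 without it).

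The Tcf/Lef recognition core (CTTTGAA or CTTTGAT) was searched on both strands in the 250 bases before each start in the RefSeq promoters (GRCm38.p6), since the hairpin targets a protein that binds it. It was present in 7.48% of 32851 promoters and in 8.63% of 27025 genes. Of the called genes, 24 matched a promoter entry: 0 of 11 called lower held the core, and 3 of 13 called higher did. Of the genes called only with the library number, 1 of 32 higher (3.13%) and 2 of 38 lower (5.26%) held it. The windows of the 3 genes called higher without the library number in the fit are shown 5′ to 3′ on the gene's strand. The core or its reverse complement is in capitals. A match describes letters only.
Gm4788, minus strand, chr1:139781260-139781306: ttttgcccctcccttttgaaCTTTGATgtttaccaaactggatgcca
Tnfrsf9, plus strand, chr4:150920055-150920101: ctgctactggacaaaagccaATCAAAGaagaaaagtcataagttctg
Dmd, plus strand, chrX:85048145-85048191: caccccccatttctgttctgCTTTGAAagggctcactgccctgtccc

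Several genes called higher have roles in immunity and are grouped here by that background alone. Guanylate-binding proteins are large GTPases that attack intracellular pathogens. Gbp9 was at 6.10 and 7.13 RPM in scrambled and 26.4 and 54.4 RPM in knockdown cells (change 1.98, SE 0.353, limma adjusted p = 0.0364). Gbp4 was at 2.43 and 3.08 against 11.7 and 28.5 RPM (change 1.81, SE 0.268, limma adjusted p = 0.0113). In both genes knockdown library 2 was well above knockdown library 1, while the scrambled libraries lay close together. Psmb10, an interferon-inducible subunit of the immunoproteasome, was at 29.0 and 25.8 against 45.5 and 53.2 RPM (change 0.74, limma adjusted p = 0.0133). Gsdmd, which forms membrane pores in pyroptotic cell death, was at 2.68 and 2.77 against 8.84 and 13.3 RPM (change 1.21, limma adjusted p = 0.0079). Tnfrsf9, a costimulatory receptor of the TNF receptor family, was at 5 and 4 reads against 33 and 26 reads.

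Over the whole family of guanylate-binding proteins and immunity-related GTPases, assembled after the values were seen, all 21 tested genes had a positive change, with a median of 1.44. The groups lay apart upward in 19 of them, against 16.9% of all genes. With the library number in the fit 6 were called higher, against 0.497% of all genes, among them Gbp3 (7.69 and 11.0 against 24.5 and 47.4 RPM) and Gbp6 (19.4 and 33.6 against 55.9 and 109 RPM), and Gbp10 had a change of 1.43. Gbp8, Gbp9, Gbp4, Gbp10 and Gbp6 lie in this order on chromosome 5, with other genes between Gbp4 and Gbp10. They resemble each other in sequence, so that reads may have been split between them.

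Interferons act through Jak kinases and the transcription factors these activate on a large set of antiviral genes. The interferon response list was written with earlier results of these data known. In it, each of the 34 tested members was higher in either knockdown library than in any scrambled library, as were 16.9% of all genes. Their median change was 1.45, from 0.42 in Ifitm3 to 2.76 in Ifit1, and the median ratio of the group means was 3.55. The list summed to 999.7 and 1165 RPM in scrambled and to 1869 and 3577 RPM in knockdown libraries. No member was called (0 of 34, limma): 33 had an unadjusted p under 0.05, as did 1024 of all genes (6.61%), and the lowest adjusted p was 0.0638, in Irf1 and Gbp3. On recovered reads 0 of 34 were called. With the library number in the fit 3 were called higher, Gbp3, Rtp4 and Ifi27l2a (limma adjusted p = 0.0392, 0.0392 and 0.0123).

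**Figure D2:**
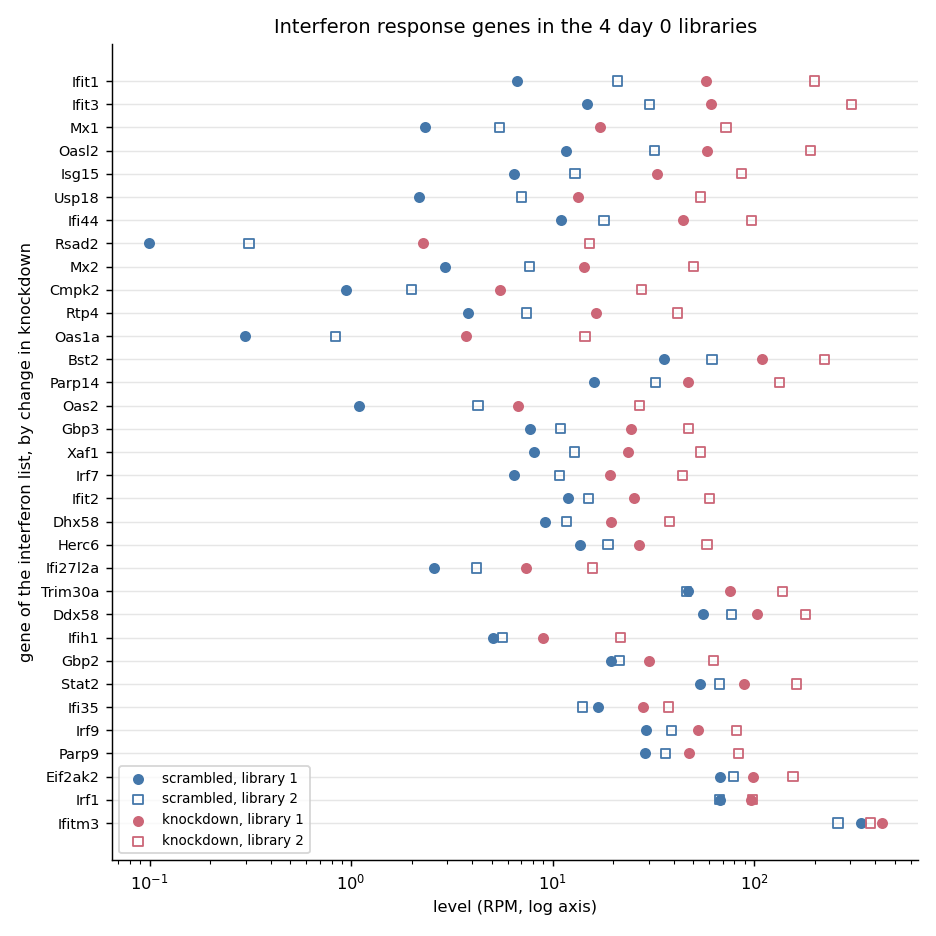
Level in RPM, on a logarithmic axis, of 33 of the 34 tested genes of the interferon response list in the 4 day 0 libraries, with scrambled in blue and knockdown in red, library 1 as filled circles and library 2 as open squares. Both red symbols lie to the right of both blue symbols in each row, and knockdown library 2 is the highest in 32 of 33 rows.

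The members differed widely between libraries of a group. Ifit1, which binds viral RNA, was at 6.65 and 21.01 RPM in scrambled and 58.1 and 200 RPM in knockdown cells (change 2.76, SE 0.663, limma adjusted p = 0.138). Isg15, a ubiquitin-like protein joined to other proteins, was at 6.45 and 12.9 against 33.0 and 86.6 RPM (change 2.11, adjusted p = 0.144). Rsad2, the antiviral enzyme viperin, was at 0.0992 and 0.311 against 2.27 and 15.3 RPM. Library 2 was above library 1 in 33 of 34 members within the knockdown group, with a median ratio of 2.23, and in 30 of 34 within the scrambled group, with a median ratio of 1.61. The part of the library number in the spread was not tested beyond the fit that includes it.

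Transcription factors of the response had positive changes that were not called. Stat2 was at 54.2 and 67.1 RPM in scrambled and 89.6 and 163 RPM in knockdown cells, and its partner Irf9 at 29.1 and 38.8 against 52.9 and 82.0 RPM. Irf7, which drives interferon genes, was at 6.4009 and 10.8 against 19.3 and 44.0 RPM. Irf1, a factor induced by interferon-gamma, was at 67.9 and 67.1 against 96.3 and 98.3 RPM, with nearly equal libraries in each group (change 0.48, SE 0.0932). The sensors of viral RNA Ddx58 (RIG-I) and Ifih1 (MDA5) were at 55.7 and 77.4 against 103 and 181 RPM, and at 5.06 and 5.67 against 8.92 and 21.6 RPM. Of 18 interferon genes in the table, which were looked up after these values were seen, 5 had a read at day 0. Ifnb1 had 0 and 0 reads in scrambled and 1 and 1 reads in knockdown libraries, Ifng 0 and 2 against 0 and 2 reads, and Ifnz 105 and 147 against 95 and 112 reads. At this depth a difference in interferon transcripts other than Ifnz was not detectable. Markers of macrophages, which respond strongly to interferon, stood at the levels given above, with 3 members at 0 reads in all libraries. Other members had reads in each library. Itgam was at 18.31 and 14.57 RPM in scrambled and 18.45 and 13.01 RPM in knockdown cells. Cd14 was at 8.98 and 6.51 against 11.59 and 8.49 RPM, and Lyz2 at 6.85 and 7.13 against 4.26 and 6.47 RPM. Whether macrophages were present was not tested.

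The interferon-stimulated response element, to which a complex of interferon-activated transcription factors binds, was searched by its core, the letters GAAA, any 2 bases and GAAA again, on both strands in the same 250 bases, counting overlapping matches. It was present in 2.98% of promoters and in 3.46% of genes. Of the 34 listed genes 24 matched a promoter entry, and 10 of these 24 (41.7%) held the core. Among genes called at day 0 none of 13 higher and none of 11 lower did (0 of each). Of the genes called higher only with the library number, 4 of 32 did (12.5%), and of those called lower, 3 of 38 (7.9%). H2-T22, an MHC class I gene, was at 53.4 and 59.9 RPM in scrambled and 94.7 and 106 RPM in knockdown cells and was called higher with the library number (limma adjusted p = 0.0392). Its window and those of 3 members of the list are shown 5′ to 3′ on the gene's strand, with a single match of the core or its reverse complement in capitals. The windows of Ifit1, Isg15 and Gbp3 hold further matches that are not marked.
Ifit1, plus strand, chr19:34640784-34640833: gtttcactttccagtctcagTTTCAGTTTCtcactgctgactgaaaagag
Isg15, minus strand, chr4:156200861-156200910: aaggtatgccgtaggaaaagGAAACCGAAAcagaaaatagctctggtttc
Gbp3, plus strand, chr3:142559979-142560028: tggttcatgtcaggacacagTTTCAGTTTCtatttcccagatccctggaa
H2-T22, minus strand, chr17:36042904-36042953: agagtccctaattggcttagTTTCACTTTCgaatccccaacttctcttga

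MHC class I molecules carry peptides cut by the proteasome to the cell surface. In the list of immunoproteasome and MHC class I presentation genes, 16 of 18 changes were positive, with a median of 0.59, and 15 of 18 genes lay apart upward, against 16.9% of all genes. Psmb10 was the 1 gene called, and 5 were called higher with the library number, against 0.497% of all genes. Psmb8, another immunoproteasome subunit, was at 2.28 and 2.15 RPM against 4.66 and 7.67 RPM, and Tapbp, which loads peptides onto class I molecules, at 292 and 282 against 416 and 456 RPM (limma adjusted p = 0.0985 and 0.142). The class I heavy chains H2-K1 (87.5 and 108 against 198 and 260 RPM) and H2-D1 (191 and 230 against 382 and 448 RPM) were called with the library number (limma adjusted p = 0.0112 and 0.0156, against 0.148 and 0.225 without it). Of 17 tested class I genes, a family assembled after the values were seen, 12 were called higher with the library number, against the same 0.497%. The class I genes are close copies, so single levels are uncertain. The constitutive proteasome subunits, by comparison, had a median change of 0.17 over 14 genes, with 13 positive, 0 called by limma in any of the 3 fits and 0 at an unadjusted p under 0.05.

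**Figure D3:**
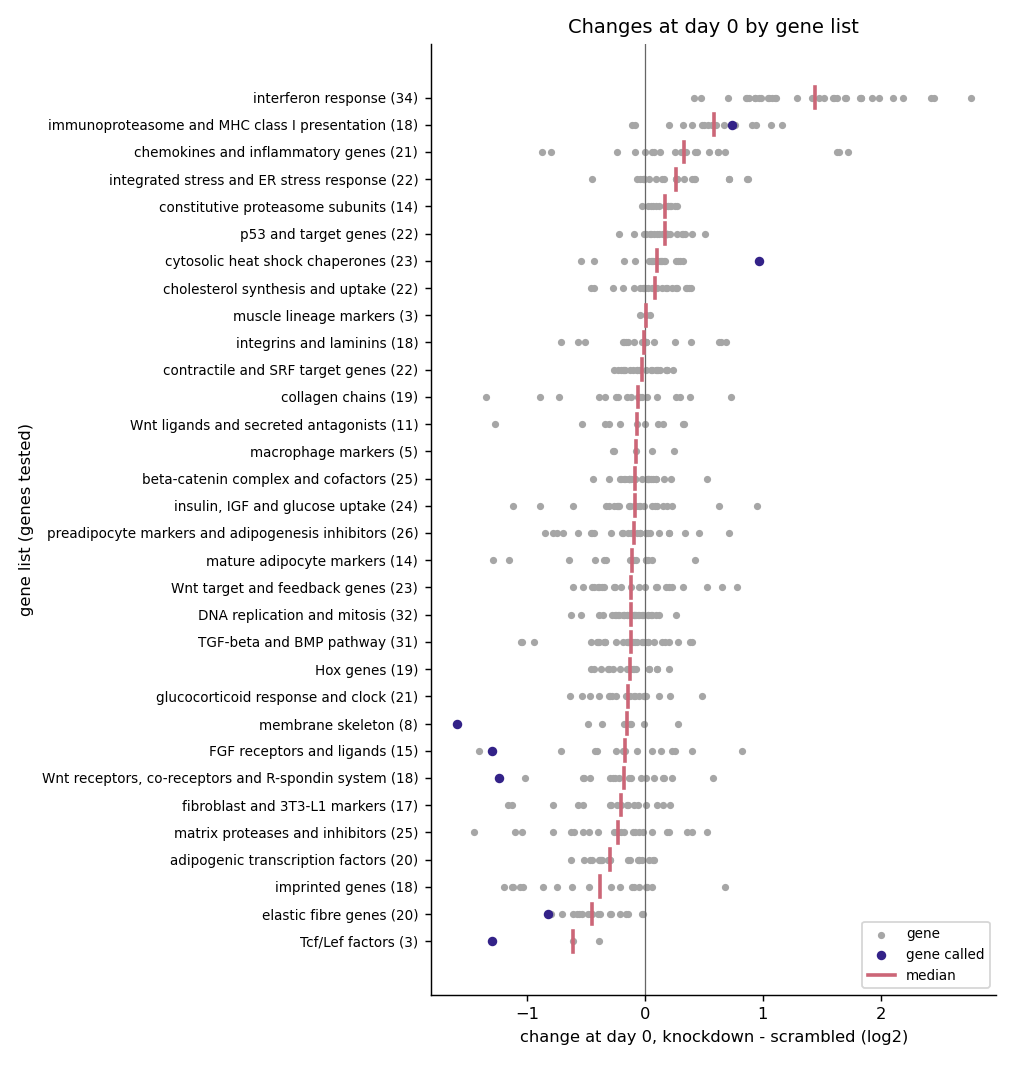
Change at day 0 (log2, knockdown minus scrambled) of the tested genes in each gene list with at least 3 tested genes, ordered by median. Each point is 1 gene, called genes are dark, and the red bar is the list's median. The interferon list has the highest median (1.45) and the Tcf/Lef list the lowest (-0.61).

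Chemokines and inflammatory genes had a median change of 0.33 over 21 genes, with 0 called by limma on the deposited values or recovered reads and 10 at an unadjusted p under 0.05. Ccl7, a monocyte chemoattractant, was at 6.45 and 13.1 RPM in scrambled and 30.1 and 48.2 RPM in knockdown cells and was called with the library number (change 1.64, limma adjusted p = 0.0176 with and 0.109 without it). Cxcl10, a chemokine induced by interferon, was at 0.496 and 0.903 against 3.03 and 20.04 RPM (adjusted p = 0.162), and Ccl5 at 1.19 and 1.28 against 3.35 and 4.01 RPM (adjusted p = 0.113). The summed level of the list moved the other way, from 2922 and 2395 RPM in scrambled to 2271 and 2000.4 RPM in knockdown libraries.

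The remaining genes called higher were of varied roles. Robo1, a receptor for Slit proteins, had 2 and 16 reads in scrambled and 102 and 198 reads in knockdown libraries (0.0992 and 0.498 against 4.06 and 6.78 RPM; change 1.55, SE 0.167, limma adjusted p = 0.0029). Sema6a, a membrane-bound semaphorin, was at 1.94 and 1.77 against 15.3 and 13.5 RPM, with both groups tight (change 1.77, limma adjusted p = 0.0074). Robo2 was at 0.744 and 0.374 against 8.13 and 5.55 RPM and was called with the library number (limma adjusted p = 0.0261 with and 0.277 without it). The Slit ligand Slit3 was at 111 and 161 against 66.1 and 73.1 RPM and was called lower with the library number (change -0.92, limma adjusted p = 0.0149). In the family of Robo receptors, Slit ligands and their effectors, assembled after the values were seen, 5 of 8 changes were positive and the median was 0.14. In the family of semaphorins, plexins and neuropilins, also assembled later, 9 of 24 changes were positive and 15 negative, with a median of -0.15 and Sema6a as the 1 call. Its groups lay apart upward in 3 genes and downward in 8, against 16.9% and 16.4% of all genes.

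Prkd1, a kinase of the protein kinase D family, had 1 and 1 read in the scrambled and 113 and 120 reads in the knockdown libraries (limma adjusted p = 0.0029). Csmd1, a membrane protein with complement-control domains, had 0 reads in both scrambled libraries and 25 and 117 reads in the knockdown libraries. Set against 3 reads over both scrambled libraries, its level was at least 45.6-fold higher. Bche, butyrylcholinesterase, had 0 and 2 reads against 61 and 127 reads, and Gap43, a growth cone protein, 1 and 2 against 27 and 57 reads. Dmd, dystrophin, was at 0.347 and 0.342 against 5.70 and 4.21 RPM, the formin Fhod3 at 0.198 and 0.840 against 2.35 and 5.31 RPM, and the receptor phosphatase Ptprq at 0.447 and 0.498 against 4.86 and 3.56 RPM. Mid2, a microtubule-binding ubiquitin ligase, was the more abundant of these in reads, with 104 and 96 against 461 and 636 reads (change 1.62, SE 0.188, limma adjusted p = 0.0047). Nmnat3, an enzyme of NAD synthesis, had 1 and 1 against 24 and 21 reads, and Foxp2, a transcription factor, 5 and 3 against 24 and 35 reads. Ccdc85a, Fam84b and Nhsl1 complete the set, with changes of 1.37, 1.04 and 0.84.

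Hspa4l, a chaperone of the Hsp110 family, was at 11.8 and 13.2 RPM in scrambled and 26.6 and 30.6 RPM in knockdown cells (change 0.96, SE 0.164, limma adjusted p = 0.0253). The 22 other tested heat shock chaperones were not called. The list's median was 0.11, and Hspa2 and Dnajb4 had changes of -0.43 and -0.54.

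The level and length of the called genes are given as a description. Genes called higher had a median mean normalised count of 68.9, those called lower of 909, and all tested genes of 572. In 14 of 25 genes called higher that count was under 100, as in 3 of 15 called lower. The count is averaged over both groups, and several genes called higher passed the limit on it through the knockdown libraries alone, so the level is not independent of the change. Their longest annotated transcripts had medians of 5409 and 4429 bases, against 3008 for all genes, and their gene spans medians of 99.1 and 72.5 kb, against 18.3 kb.

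**Figure D4:**
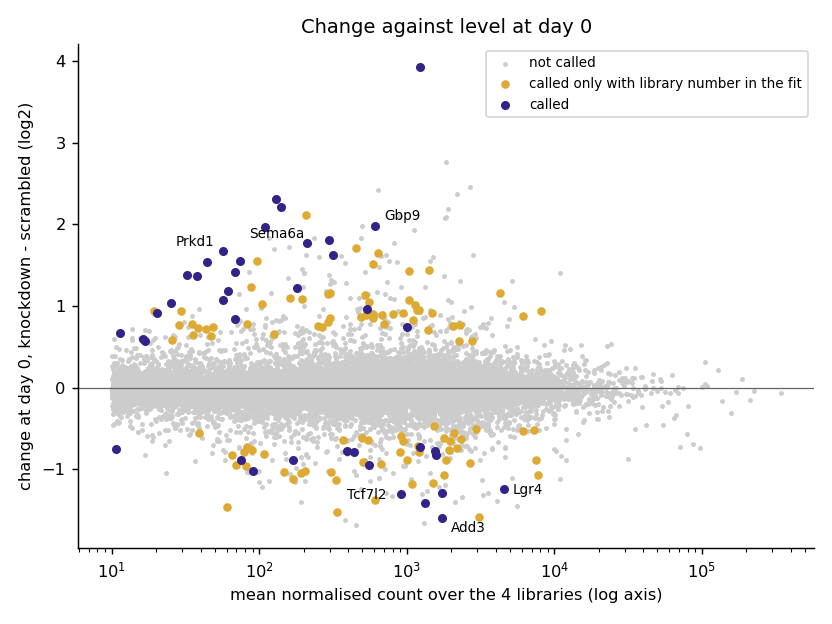
Change at day 0 (log2, knockdown minus scrambled) against the mean normalised count over the 4 day 0 libraries, on a logarithmic axis, for all 15490 tested genes. Called genes are dark blue and genes called only with the library number in the fit are yellow. The called genes above 0 extend to low counts.

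Of the 100 genes called only with the library number, 54 were higher and 46 lower. Msln, the mesothelial surface protein mesothelin, was at 0.943 and 0.996 RPM in scrambled and 10.5 and 19.3 RPM in knockdown cells (change 2.11, limma adjusted p = 0.0070 with the number). Gdf10, a ligand of the TGF-beta family, was at 4.66 and 4.05 against 0.279 and 0.137 RPM, and Cacna1g, a T-type calcium channel, at 152 and 206 against 54.2 and 59.8 RPM. Vstm2a, a secreted protein known from preadipocyte commitment, was at 26.3 and 15.1 against 6.10 and 3.53 RPM. Ptx3, a soluble pattern recognition protein, was at 68.8 and 92.2 against 32.0 and 35.3 RPM, and Abi3bp, a matrix protein, at 21.8 and 15.5 against 7.89 and 5.27 RPM. Plekha6 and Rasl11a had changes of -1.38 and -1.18. In these genes the groups did not overlap, except in Rasl11a, at 81.0 and 34.1 against 39.2 and 11.0 RPM, and in Igf2.

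Imprinted genes were mixed. Igf2, a growth factor, was at 3.18 and 17.1 RPM in scrambled and 0.518 and 5.0001 RPM in knockdown cells, lower in knockdown within each library number and overlapping between groups (change -1.12, limma adjusted p = 0.0325 with the number and 1.00 without). Ndn, necdin, was at 39.99 and 47.0 against 72.1 and 74.5 RPM (adjusted p = 0.254). The list's median was -0.38 over 18 genes, with 14 negative, 0 called by limma on either scale without the number and 6 at an unadjusted p under 0.05. In the TGF-beta and BMP list, Tgfb2 (37.8 and 31.6 against 19.6 and 13.6 RPM) and Id4 (12.9 and 9.21 against 3.63 and 3.49 RPM) were called lower with the number, and the median of its 31 genes was -0.12.

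The adipogenic genes that define the later cascade were not called before induction. Pparg, the master regulator of fat cell formation, was at 32.6 and 30.4 RPM in scrambled and 21.7 and 17.2 RPM in knockdown cells (change -0.62, SE 0.573, limma adjusted p = 1.00). Cebpa, its partner, was at 41.1 and 35.4 against 30.7 and 21.7 RPM (change -0.52, SE 0.706, adjusted p = 1.00). Both were lower in both knockdown libraries, and their SE over the time course was close to the size of the change. Of 20 adipogenic transcription factors 0 were called by limma in any of the 3 fits and 0 had an unadjusted p under 0.05, 17 changes were negative and the median was -0.29. In 10 of the 20 the groups lay apart downward, against 16.4% of all genes. Zfp423 and Ebf3, early determinants of the preadipocyte state, had changes of -0.45 and -0.38.

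Markers of mature adipocytes had a median change of -0.11 over 14 tested genes, with 0 called by limma in any of the 3 fits and 1 at an unadjusted p under 0.05. Plin4, a lipid droplet coat protein, was at 199 and 188 against 71.7 and 84.7 RPM (change -1.29, adjusted p = 0.505), and Fabp4, a fatty acid carrier, at 8.78 and 3.95 against 1.75 and 0.719 RPM (change -1.15, adjusted p = 1.00). In the authors' deposited table the DESeq2 adjusted p was 1.63e-07 for Plin4, 0.0070 for Fabp4 and 0.277 for Lpl, another member. The spread used here also covers later days. Between scrambled libraries the SD of the difference was 0.201, 0.441, 0.478 and 0.568 at days 2, 4, 6 and 8. At day 0 it was 0.305. Of the list's 22 members, Lep and Pck1 were those with 0 reads in all day 0 libraries. The list summed to 1158 and 1112 RPM in scrambled and 828 and 831 RPM in knockdown libraries. In bulk RNA, fewer cells of a type and less RNA per cell cannot be told apart. Preadipocyte markers and inhibitors of adipogenesis had a median of -0.09 over 26 genes, with 10 positive and 16 negative changes. There were 0 calls by limma in these fits and 5 genes at an unadjusted p under 0.05. Among the 26, Pi16 was at 11.7 and 11.3 against 4.86 and 4.93 RPM (limma adjusted p = 0.3803). Gata2 was at 25.5 and 32.7 against 12.7 and 21.3 RPM (adjusted p = 0.583). Gata3 moved the other way, at 2.53 and 2.80 RPM in scrambled and 3.75 and 6.23 RPM in knockdown cells (change 0.46). The authors' DESeq2 adjusted p-values for Pi16, Gata2 and Gata3 were 0.0020, 0.425 and 0.805.

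In 11 further lists limma called 0 of 246 tested genes on the deposited values, 1 on recovered reads (Timp4, adjusted p = 0.0488) and 1 with the library number (Igf2), and 18 (7.32%) had an unadjusted p under 0.05. The median change was -0.12 for 32 genes of DNA replication and mitosis, 0.17 for 22 genes of the p53 pathway, 0.27 for 22 genes of the integrated and endoplasmic reticulum stress responses, 0.08 for 22 genes of cholesterol synthesis, -0.06 for 19 collagen chains, -0.02 for 22 contractile genes and -0.23 for 25 matrix proteases and inhibitors. Timp4, an inhibitor of matrix proteases, was at 1.39 and 2.05 RPM in scrambled and 0.0398 and 0.0342 RPM in knockdown cells (adjusted p = 0.102). Serpine2, a protease inhibitor, was at 312 and 307 against 106 and 120 RPM (limma adjusted p = 0.435, authors' DESeq2 adjusted p = 2.59e-10). The median was -0.14 for 21 genes of the glucocorticoid response and the clock, -0.08 for 24 genes of insulin, IGF and glucose uptake, -0.01 for 18 integrins and laminins, and -0.13 for 19 Hox genes.

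The libraries of days 2, 4, 6 and 8 do not enter the day 0 change of a gene, but they enter the shared spread behind its call. A gene with a small shared spread is favoured at day 0 and later, so the later calls are not an independent check. These libraries may also come from the same selected populations. Averaged over these days, 3898 of 15490 genes were called (25.2%), 1906 higher (12.3%) and 1992 lower (12.9%). All 40 genes called at day 0 were called in the same direction, with a highest limma adjusted p of 0.0088 in Hey1, and each kept its sign on all 4 later days. Over all 15490 genes, 3043 were called later in the direction of their day 0 change. From 8737 to 9478 of them kept the day 0 sign on a single later day. For the 25 higher genes the median change was 1.37 at day 0 and 1.54 later, and for the 15 lower genes -0.88 and -0.59. Of the lower genes, 13 had a smaller change later, as had 10 of the higher genes. All 40 were picked by their change at day 0, and such a choice alone can give smaller changes in other libraries. Its part was not tested.

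Single genes show both courses. Tcf7l2 changed by -1.30 at day 0 and by -1.04, -1.43, -1.52 and -1.51 at days 2, 4, 6 and 8. The change of Lgr4 went from -1.24 to -0.76, -0.47, -0.44 and -0.51, and that of Daam2 from -1.41 to -1.15, -0.82, -0.50 and -0.77. The test of the difference between day 0 and the later average called 0 of 15490 genes, with limma on the deposited values, with the library number and on recovered reads. An unadjusted p under 0.05 was reached by 714 genes (4.61%) on the deposited values and by 781 on recovered reads, and the lowest adjusted p was 0.7997. Because each day was transformed on its own, with 0 reads set at 4.995 to 6.94, low genes are compressed unequally between days.

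Of the 100 genes called only with the library number, 86 were called in the same direction later, 53 of the 54 higher and 33 of the 46 lower. Over all 15490 genes, 3043 were called later in the direction of their day 0 change. Ptx3 was at -1.17 at day 0 and 0.12 later, and Cacna1g at -1.59 and -0.49 (limma adjusted p of the later averages 0.509 and 0.0771). The interferon list had a median change of 2.04 later, with 34 of 34 members called higher. Mature adipocyte markers went from a median of -0.11 to -1.65 with 12 of 14 called lower, Pparg from -0.62 to -1.46 and Cebpa from -0.52 to -1.64. For the elastic fibre genes the medians were -0.45 and 0.07. Across all genes Pearson's r between the day 0 and the later change was 0.526 and Spearman's rho 0.295. Genes share libraries and are not independent replicates.

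**Figure D5:**
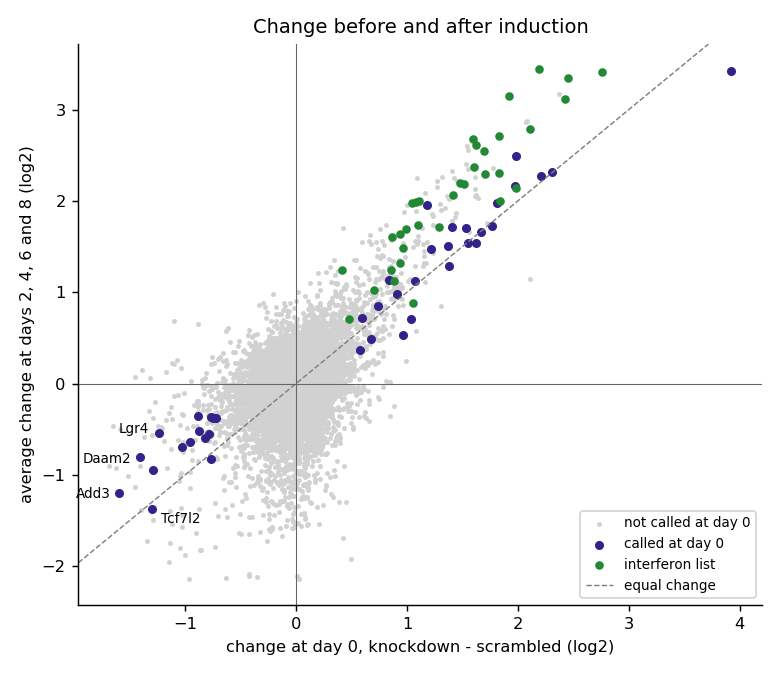
Average change at days 2, 4, 6 and 8 against the change at day 0 (both log2, knockdown minus scrambled) for 15490 genes. Genes called at day 0 are dark blue, genes of the interferon list green, and the dashed line marks equal change. All 40 called genes lie in the quadrants of equal sign, and 33 of 34 interferon genes lie above the dashed line.

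The libraries numbered 1 and 2 differed from each other in related ways in both groups, with deviations correlated at 0.794 over genes at day 0. The fit gives both groups of a day the same difference, and whether it differed between the groups was not tested. Between library numbers 1450 genes were called at day 0 (9.36%), 672 higher and 778 lower in library 2. The longest annotated transcript had a median of 6488 bases in genes higher in library 2, 1004 bases in genes lower in library 2 and 3016 bases in the others. Over the 14621 genes with an annotated length (94.4%), Spearman's rho of the library difference with length was 0.368, and that of the knockdown change with length was -0.0706. Lrp1, an endocytic receptor with a long transcript, was at 548 and 503 RPM in the libraries numbered 1 and at 2131 and 2038 RPM in those numbered 2. Hspg2, the proteoglycan perlecan, was at 317 and 288 against 1514 and 1484 RPM. Id1, a short inhibitor of basic helix-loop-helix factors, was at 92.6 and 76.9 against 37.3 and 27.8 RPM. Of the 40 genes called for the knockdown, Tcf7l2 and Fhod3 were the 2 that also differed by library number.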

How the data were processed

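RNA-seq of 20 libraries (10 groups of 2) was used in 5 deposited tables, 1 per day. Per the labels, TruSeq V2 libraries were made. This kit does not mark strand, so overlapping and antisense genes cannot be told apart. Per the submitters' processing notes, mm9, TopHat2 2.0.13, Bowtie2 2.2.3.0, SAMtools and DESeq2 1.10.1 were used, and no source used here names the read counter. Values per library, as the authors deposited them, are variance-stabilised and log2, normalised within each table, and come with the authors' mean normalised signal, log2 fold change, standard error, test score, p-value and adjusted p-value per gene. No per-library column was left unused (0 columns).

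The transformation was inverted to reads: 100% of values up to 100 reads lay within 0.02 of a whole number. RPM are these reads scaled to the library total. limma 3.58.1 (R 4.3.3, statmod 1.5.0; trend, robust) fitted 10 group means to the deposited log2 values of 15490 genes (mean normalised count of at least 10 at day 0), with 10 residual degrees of freedom, or 5 with the replicate number within day as a block. Tables used pandas 2.3.3. Scripts were tested on simulated data. The pairing by number comes from the data: deviations of same-numbered libraries correlated at 0.794, 0.715, 0.538, 0.519 and 0.459 at days 0, 2, 4, 6 and 8, and the labels name no shared culture. Libraries of a group were not copies, with an SD of their difference of 0.305 (scrambled) and 0.327 (knockdown) at day 0.

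The genes called at day 0 were named, except 1 that is not reported here, with the 8 largest changes per direction called only with the block, the 3 smallest p of each list, the largest differences by library number, and Tcf7l2, Axin2, Lef1, Lgr4, Pparg and Cebpa; predicted genes (Gm numbers, Rik clones) were counted and left unnamed, and Gm4788 and Gm16332 are exceptions. Members, lists and tests were chosen with earlier results of these data known. Dlk1, Notch1, Lrp6, Slit3, Eln, Daam1, Add1 and members of the lists or of families assembled later that are named without being among these were chosen after their values were seen. Alternatives were other filters, scalings, sets of libraries, a replicate block, recovered reads (limma voom) and leaving out each library; the fits of days 0 and 2 with the block and without the scrambled libraries of day 8 were added after seeing the data. Promoter sequences are from RefSeq, GRCm38.p6.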

Additional observations from a re-analysis of the deposited data

How the results depend on the processing

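The number of genes called at day 0 (40) depended on the libraries and terms in the fit. It was 138 with the replicate block, which also changed the calls given with the report, and 165 on recovered reads with the replicate block. It was 2 on the day 0 table alone, 158 on days 0 and 2 alone, 2836 on days 0 and 2 alone with the replicate block and 74 without both scrambled libraries of day 8. Leaving out 1 library at a time gave 3 to 74 genes, with 74 without either scrambled library of day 8. The other settings gave 29 to 39. The change of Tcf7l2 was -1.30 on the day 0 table alone, where it was not called (adjusted p = 0.365), and -1.60 to -0.99 with 1 library left out. For the average of days 2 to 8 (3898 genes), the count was 6548 with the replicate block, 6687 on recovered reads with the replicate block, 1108 at a change of at least 1.5-fold and 2728 to 5632 with 1 library left out. Between library numbers (1450 genes) it was 589 at 1.5-fold and 6269 on days 0 and 2 alone with the replicate block, and median centring turned the split from 672 higher and 778 lower to 837 and 578. The test of the difference between day 0 and later days called 0 genes in all settings run. Scaling moved the median change of all genes to at most -0.017. With 2 libraries per group no outlier within a group can be named.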
